A study of Drosophila melanogaster with 4 samples.

Results

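The proximal 2 Mb of chromosome arm 2L run from position 21011545 to position 23011544, the end of the 2L sequence in FlyBase Release 5 of the Drosophila melanogaster genome. Every region classed as enriched for H3K9me2 with its midpoint in that window was taken as a member. Replicate 1 had 134 such regions of 6264 in all, replicate 2 had 202 of 10907, and the authors' combined list had 179 of 10762. The 3 lists held 0 regions classed as depleted in the window. In replicate 2 the member nearest to the window's edge lay 41.9 kb inside it (1523 bp, score 0.20), and the nearest region left out lay 1.71 kb outside it (1804 bp, score 0.47). In replicate 1 the nearest regions lay 70.4 kb inside the edge (1942 bp, score 0.62) and 80.4 kb outside it (6063 bp, score 1.31).

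The regions come from chromatin immunoprecipitation with sequencing (ChIP-seq) of H3K9me2 in head nuclei, with 2 ChIP libraries and 2 input libraries. All were made from wild-type Oregon-R flies (official name Oregon-R-modENCODE) of the stage Mixed Adult, raised in population cages, and the antibody was H3K9me2-Ab2 (new lot). Heads hold neurons, glia, eye and other cells of many flies, so each list is an average over cell types. No label states that separate fly populations gave the replicates, so the spread between them may be technical. The lists carry no read counts, which leaves the depth of each library unknown and allows no counting interval or limit for an uncovered stretch.

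H3K9me2 is histone H3 dimethylated at lysine 9, a mark laid down in heterochromatin, where the protein HP1 binds methylated lysine 9 and the chromatin spreads along the fibre until it meets a boundary. Around the fly centromeres this chromatin is rich in transposable elements and satellite repeats, and the arm sequence of a genome release ends inside it. Some essential genes nevertheless lie in it. On 2L they include light (lt), whose product acts in vesicle traffic to the lysosome, and concertina (cta), a G protein subunit of gastrulation. The tandem repeats of the replication-dependent histone genes also lie in proximal 2L. In a gene table of Release 6, lt and cta are neighbouring protein-coding genes of 2L, but that table has other coordinates, and no gene was placed on the regions described here.

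The window was made up of a sparsely marked distal portion and a densely marked proximal portion. The covered share is the part of the sequence inside enriched regions, and in both replicates it was higher from about 1 Mb before the sequence ends. A least-squares step fitted to 10-kb bins of the last 5 Mb fell at position 22041545 in replicate 1 and at 22051545 in replicate 2. These points are 970 and 960 kb from the end of the arm, a mean of 965 kb ± 7.07 (SD, n = 2), and the bin width is 10 kb. The side of the step towards the centromere was covered over 77.3% in replicate 1, against 13.5% on the side towards the telomere, a ratio of 5.73. Replicate 2 had 68.0% towards the centromere, against 19.8% towards the telomere, a ratio of 3.42. The step accounted for 53.2% of the variance of the bins in replicate 1 and for 36.7% in replicate 2. In the combined list the same fit placed the step 130 kb nearer to the telomere than in replicate 2, at 21921545, with 75.8% and 22.5% on its sides.

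The fitted rise was wide compared with the bins. A logistic curve fitted to the same bins took 363 kb in replicate 1 and 385 kb in replicate 2 to climb from 10% to 90% of its height, and 728 kb in the combined list. With 2 steps in place of 1, the step nearer to the centromere fell at 22051545 in each list, where the single step had fallen in replicate 2 only. The first fell at 21141545 for replicate 1, at 18481545 for replicate 2 and at 20051545 for the combined list, so these places did not coincide. Both steps together accounted for 56.1% of the variance in replicate 1 and for 39.1% in replicate 2.

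**Figure D1:**
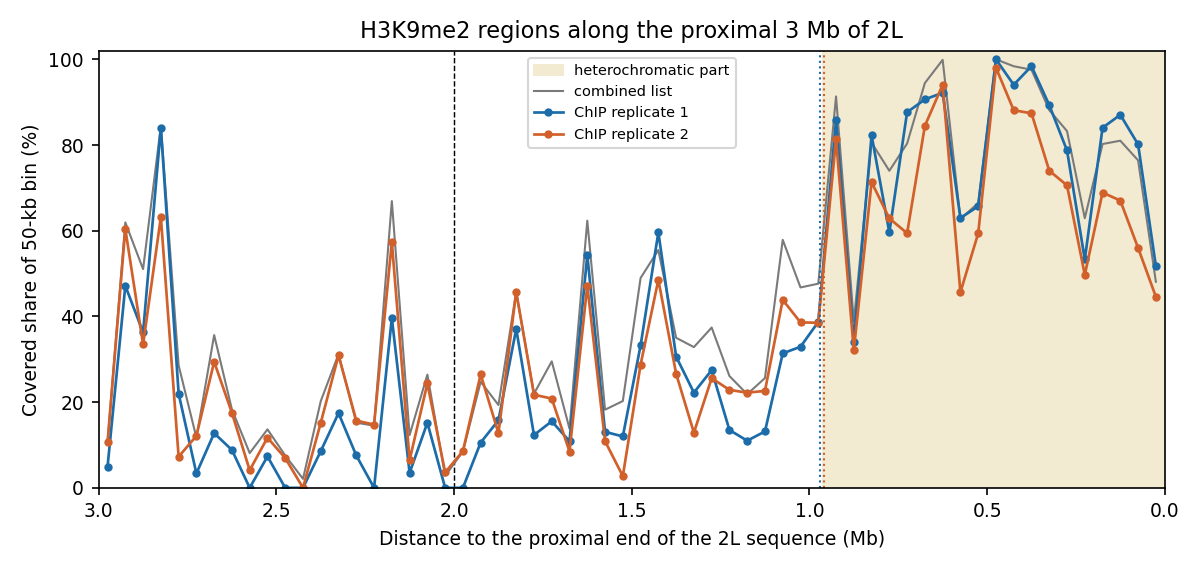
Covered share of 50-kb bins (y axis, %) over the last 3 Mb of 2L against the distance to the proximal end of the sequence (x axis, Mb), for both ChIP replicates and the combined list. Dotted lines mark the fitted steps at 970 and 960 kb, the dashed line the edge of the window, and the shading the heterochromatic part. Bins inside the shading reach 100% in replicate 1 and 98.1% in replicate 2, and the lowest bin of the shading, at 34.1% and 32.1%, is the same in both.

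In what follows, the heterochromatic part is the stretch from 22050000 (the mean step, rounded to 10 kb) to the end of the arm, 962 kb long, and the euchromatic side is the remaining 1038 kb of the window. The heterochromatic part was covered over 77.5% in replicate 1 and over 67.9% in replicate 2, with a mean of 72.7% ± 6.82 (SD, n = 2). The euchromatic side was covered over 23.2% in replicate 1 and over 25.4% in replicate 2, with a mean of 24.3% ± 1.495. Since the step chose this division, the contrast is a description. The euchromatic side in turn exceeded the remainder of 2L, which was covered over 10.2% in replicate 1 and 19.6% in replicate 2. That difference was 13.1 percentage points in replicate 1 and 5.74 points in replicate 2, a mean of 9.40 ± 5.18. With both replicates positive, a two-sided exact permutation test by sign flips had p = 0.5, which is the smallest that n = 2 allows.

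The whole window was covered over 49.3% in replicate 1 and over 45.8% in replicate 2, with a mean of 47.6% ± 2.50, and exceeded the remainder of the arm by 32.7 points ± 9.18 (exact sign-flip permutation test, p = 0.5, again the smallest possible). Taken in pieces of 1 Mb from the proximal end, the last piece had 75.8% and 66.7% in replicates 1 and 2 and the next 22.8% and 24.9%. In the 22 pieces beyond, the highest share was 16.9% in replicate 1 and 33.6% in replicate 2, in both lists in the piece 22 to 23 Mb from the proximal end, at the telomeric end of the arm. The second megabase was thus the second most covered piece of the arm in replicate 1 and the fifth in replicate 2.

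The replicate with the higher covered share was not the same along the arm. In 22 of the 23 full 1-Mb pieces of the arm replicate 2 was covered more, and only in the most proximal piece was replicate 1 covered more. In 50-kb bins, replicate 1 was higher in 17 of the 19 bins of the heterochromatic part and in 11 of the 21 bins of the euchromatic side. Across the 40 bins of the window the shares of the replicates had Pearson's r of 0.96 and Spearman's rho of 0.96, across the 19 heterochromatic bins 0.89 and 0.90, and across the 21 euchromatic bins 0.85 and 0.81. These are descriptions across neighbouring bins of the same libraries, which are not independent.

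Seen in 250-kb zones from the proximal end, the mark was densest not at the end of the sequence but 250 to 500 kb before it. That zone was covered over 92.1% in replicate 1 and 83.6% in replicate 2, and the outermost zone, from 0 to 250 kb, over 71.3% and 57.2%. The zone from 500 to 750 kb had 79.8% and 68.6%, and the zone from 750 to 1000 kb, which contains the step, 60.1% and 57.2%. Beyond it the share dropped to 20.4% and 30.0% between 1000 and 1250 kb. Between 1250 and 1500 kb it was 34.6% and 28.5%, more than in the zone before it in replicate 1 and less in replicate 2. The last 2 zones had 21.2% and 18.0%, and 15.1% and 23.1%. The Jaccard index of the replicates (the length shared by both, as a share of the length covered in either) was 89.2% in the densest zone and 49.8% in the zone farthest from the centromere. This index rises with the covered share even for regions placed independently, so it does not compare the agreement of the replicates between zones.

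Members of the heterochromatic part were longer than those of the euchromatic side. Their median length was 5990 bp in replicate 1, against 2510 bp on the euchromatic side, and 3861 bp in replicate 2, against 2271 bp. On the remainder of 2L the medians were 2295 bp in replicate 1 and 2189 bp in replicate 2, close to those of the euchromatic side. Of the 21 members of at least 10 kb in replicate 1, 20 lay in the heterochromatic part, and in replicate 2, 17 of 18. The number of regions per 100 kb differed less than their length in replicate 1, with 6.76 in the heterochromatic part and 6.64 on the euchromatic side, and was 11.6 and 8.67 in replicate 2.

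The 10 longest stretches shared by both replicates, with breaks of up to 1 kb joined, made up 37.7% of the shared length of the window. The longest lay at 22576513–22640916 (64.4 kb) and the next at 22507030–22566666 (59.6 kb), and the regions of replicate 1 that hold them were 2.97 kb apart. In replicate 1 each was 1 region, with scores of 1.92 and 2.01, and in replicate 2 they were pieced together from 5 and 4 regions with mean scores of 1.61 and 1.96. The third, at 22338751–22379318 (40.6 kb), scored 2.10 in replicate 1 and averaged 1.87 over 4 regions of replicate 2. Then came 22746145–22775545 (29.4 kb), 22205534–22230230 (24.7 kb), 22844093–22864398 (20.3 kb), 22478658–22498218 (19.6 kb) and 22310489–22329541 (19.1 kb). The tenth was 22651764–22669649 (17.9 kb). The ninth was the only one of the 10 outside the heterochromatic part, at 21578155–21596155 (18.0 kb), scoring 1.58 in replicate 1 and averaging 1.61 in replicate 2.

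Replicate 2 listed the heterochromatic stretches as several shorter regions. Of the 21 members of at least 10 kb in replicate 1, 20 were met by at least 2 regions of replicate 2, with a median of 3 and a maximum of 6. Replicate 2 covered 68.0% of the least covered of them and 97.2% of the most covered. In the other direction, 1 of the 18 such members of replicate 2 was met by more than 1 region of replicate 1. The longest member, at 22576513–22646895 in replicate 1, measured 70.4 kb, whereas the longest of replicate 2 measured 27.8 kb.

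**Figure D2:**
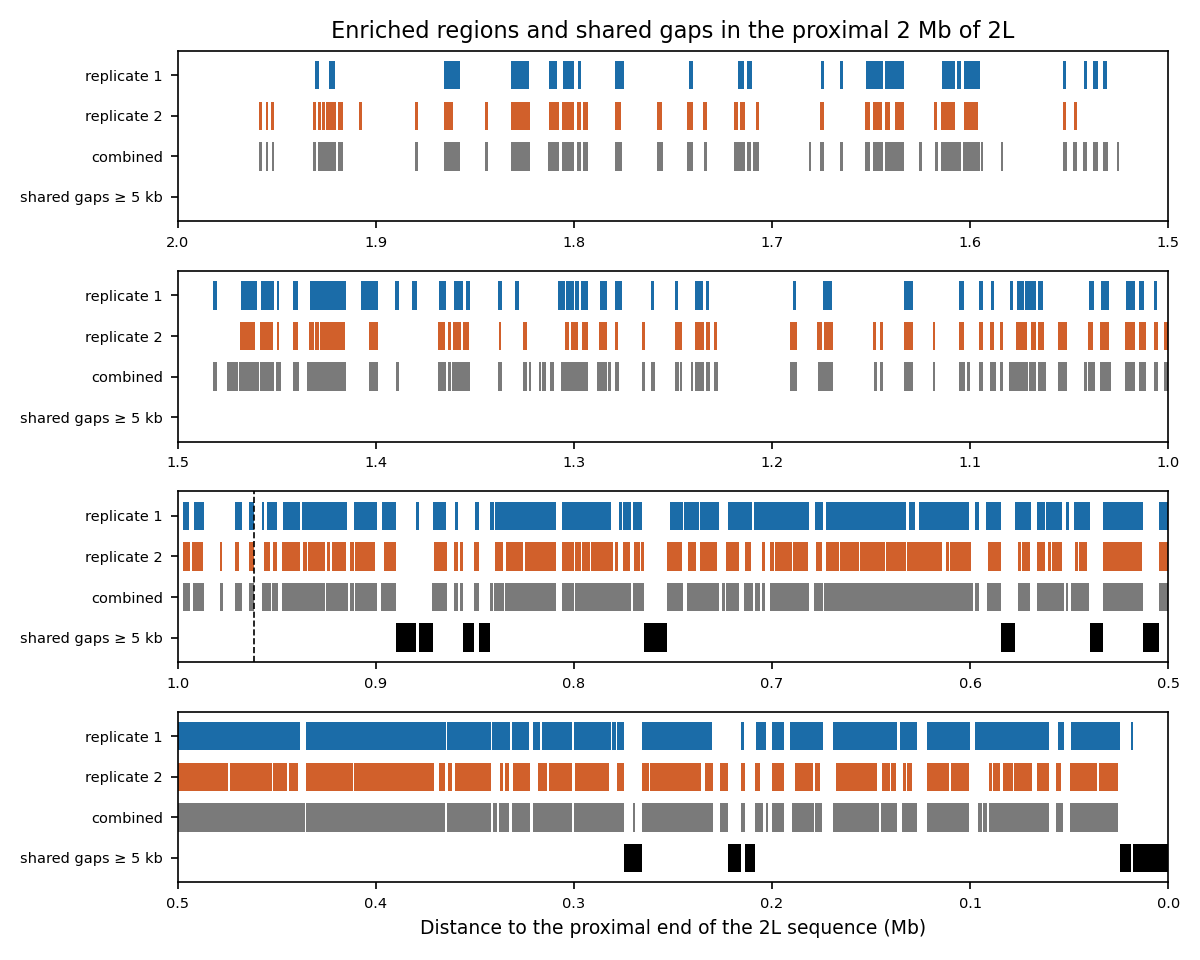
Enriched regions of replicate 1, replicate 2 and the combined list in the proximal 2 Mb of 2L, drawn to scale in 4 rows of 0.5 Mb against the distance to the proximal end (x axis, Mb), with the shared gaps of at least 5 kb of the heterochromatic part in black. The dashed line marks the start of that part, beyond which long blocks take the place of scattered short regions, and replicate 2 shows narrow breaks inside the blocks of replicate 1.

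Inside the heterochromatic part, a gap is a stretch outside all enriched regions of a list. Gaps took up 22.5% of it in replicate 1 (66 gaps, 216 kb) and 32.1% in replicate 2 (113 gaps, 309 kb). Their median length was 2.38 kb in replicate 1 and 1.40 kb in replicate 2. Stretches outside the regions of both replicates, called shared gaps, amounted to 191 kb or 19.8% of the part, in 63 pieces with a median of 2.13 kb. Of these, 13 were at least 5 kb long and held 55.8% of the gap length, 3 were at least 10 kb, and 0 reached 20 kb. Replicate 1 alone had 13 gaps of at least 5 kb and replicate 2 alone 20. On the euchromatic side, for comparison, shared uncovered stretches took up 69.1%, with 45 of at least 5 kb, 7 of at least 20 kb and a longest of 48.9 kb.

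The longest shared gap was the end of the arm itself, 22993897–23011544 (17.6 kb), which has a region on 1 side only. Replicate 1 listed a last region of 1372 bp just before it, at 22992525–22993896 with a score of 2.20. Replicate 2 listed nothing beyond 22986054, and its terminal gap was 25.5 kb long. The longest gap with regions on both sides lay at 22247025–22258700 (11.7 kb, and 14.4 kb in replicate 1), followed by 22121862–22131938 (10.1 kb), 22736912–22745998 (9.09 kb), 22498899–22506961 (8.06 kb) and 22133398–22140695 (7.30 kb). The gaps of 10.1 and 7.30 kb were a single gap of 19.4 kb in replicate 2. Only replicate 1 had a region between them, of 1459 bp with a score of 0.55, and the combined list left 18.2 kb uncovered there. The others of the 10 longest were 22427282–22434165 (6.88 kb), 22789231–22796036 (6.81 kb), 22471850–22478408 (6.56 kb) and 22155420–22161411 (5.99 kb). Each was a gap in both replicates by definition, but their replicate lengths differed little in some and widely in others. The gap at 22736912–22745998 measured 9.09 kb in replicate 1 and 9.35 kb in replicate 2. The combined list, however, had a region of 1001 bp with a score of 0.44 inside it. The longest uncovered stretch left there was 4.69 kb. The gap at 22789231–22796036 measured 14.6 kb in replicate 1, because replicate 2 alone listed a region of 3687 bp with a score of 2.33 beside it.

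The edges of these gaps differed between the replicates by very unequal amounts. For the 12 shared gaps of at least 5 kb with regions on both sides, the 24 edges of the enclosing replicate gaps differed by a median of 527 bp between the replicates. Of the 24, 12 differed by less than 500 bp and 14 by less than 1 kb. The smallest difference was 22 bp and the largest 19020 bp, at the gap next to the arm's end, where replicate 2 lacked the last region of replicate 1. There the gap of replicate 2 ran to the end of the sequence, so that value is no distance between region edges. The gaps at 22121862–22131938 and 22133398–22140695 lay in a single gap of replicate 2, whose edges were counted for both. The combined list left 5 of the 13 gaps of at least 5 kb free of regions and covered 2.81% of their total length. Over all 63 shared gaps it covered 19.1 kb, or 10.0% of their length. Its highest score in the window, 4.25, belonged to a region of 1761 bp inside a shared gap, at 22286150–22287910. These values are a description only, since the combined list was made from the same libraries.

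**Figure D3:**
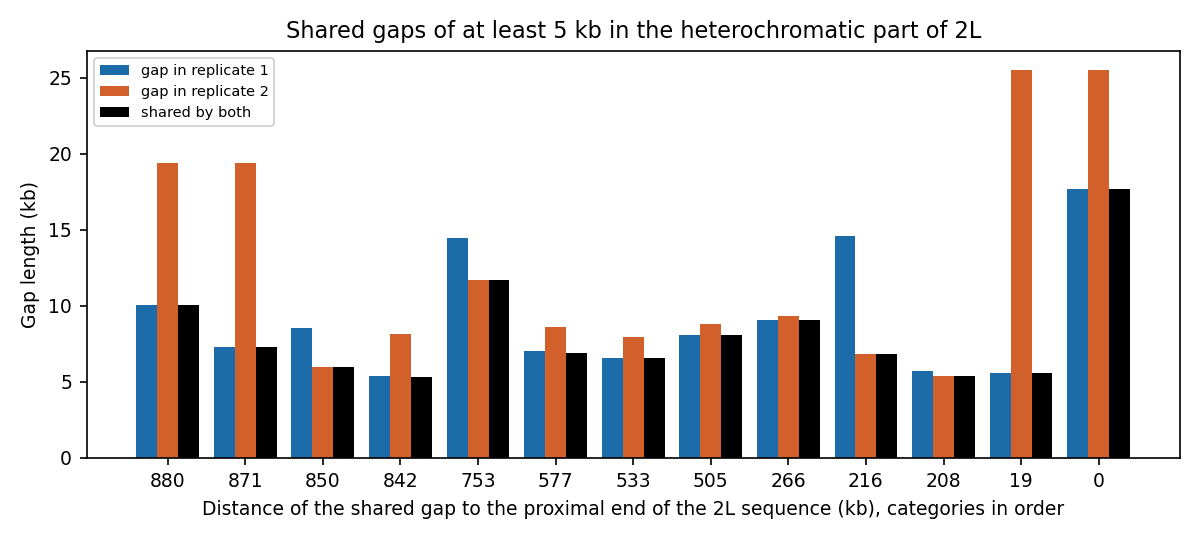
Length (y axis, kb) of the 13 shared gaps of at least 5 kb in the heterochromatic part, in order from the transition to the arm's end (x axis, distance in kb), with the enclosing gap in replicate 1, that in replicate 2 and the stretch shared by both. The gaps at 880 and 871 kb are a single gap of 19.4 kb in replicate 2, and those at 19 and 0 kb a single one of 25.5 kb.

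Several of the longest gaps lay next to the transition. Between the long regions ending at 22112274 and starting at 22171869 in replicate 1 lay 59.6 kb, of which shared gaps took up 60.2%, with 4 of the 13 gaps of at least 5 kb. That stretch was covered over 35.01% in replicate 1 by 8 regions of 1459 to 5163 bp, and over 30.7% in replicate 2 by 6 regions of 1404 to 6313 bp. Their scores were low, from 0.51 to 0.97 in replicate 1 and from 0.45 to 1.15 in replicate 2. On its telomeric side stood a covered stretch, since the 50-kb bin at 22061545–22111544 had 85.8% and 81.4%, whereas the next, at 22111545–22161544, had 34.1% and 32.1%, the lowest values of the heterochromatic part. With the part divided into 3 pieces of equal length, shared gaps took up 22.3% of the piece next to the transition, 13.1% of the middle piece and 24.1% of the piece at the arm's end. They held 5, 3 and 5 of the gaps of at least 5 kb. Whether the 4 gaps of the 59.6-kb stretch count as inside the heterochromatic part depends on where the step is placed. With the better-scoring 50% of regions it fell beyond them in replicate 2, at 22171545, and before them in replicate 1, at 22061545. In the combined list it also fell before them, at 21921545.

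Nearly all of what replicate 2 covered in the heterochromatic part was also covered in replicate 1. The shared length was 627 kb, which amounted to 96.1% of what replicate 2 covered and 84.1% of what replicate 1 covered. Replicate 1 covered 77.5% of the part and replicate 2 67.9%, so large shares would arise there even from independent placement. Of the 113 gaps of replicate 2, 59 were filled completely by replicate 1, with a median length of 0.43 kb and 43.7 kb in all. Of the 66 gaps of replicate 1, 7 were filled completely by replicate 2, with 4.88 kb in all. No gap of at least 5 kb was filled whole: the 13 in replicate 1 were filled over at most 26.3% by replicate 2, and the 20 of replicate 2 over at most 81.8% by replicate 1. On the euchromatic side the shared length was 184 kb, or 69.8% of what replicate 2 covered and 76.2% of what replicate 1 covered. Replicate 1 covered 23.2% of that side and replicate 2 25.4%, so these shares do not compare the agreement of the replicates with that in the heterochromatic part.

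Counted as regions touched by at least 1 bp, 110 of the 134 members of replicate 1 (82.1%) met a region of replicate 2, against 93.6% of all regions of replicate 1. Of the 202 members of replicate 2, 169 (83.7%) met a region of replicate 1, against 60.9% of all regions of replicate 2. The members of replicate 1 were thus met less often than its regions at large, and those of replicate 2 more often, and these shares were not tested against each other. On the remainder of 2L, 97.5% of 637 regions of replicate 1 and 44.2% of 1329 regions of replicate 2 were met. The 24 unmet members of replicate 1 comprised 9 in the heterochromatic part and 15 on the euchromatic side. They had a median length of 1856 bp, and the longest measured 3927 bp. Of the 33 unmet members of replicate 2, 4 lay in the heterochromatic part, at scores from 0.58 to 2.33.

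The unit of the authors' scores is not stated, and their scale was read from the values. In replicate 1, 621 of 6264 scores had another score exactly 1 higher (within 1e-09), and in replicate 2, 1503 of 10908, the depleted region included. In both, 0 had one higher by the natural or the decimal logarithm of 2. The scores were therefore read as log2 values with an unknown constant in each list, and their levels were compared within a list only. Scores that recurred exactly belonged to shorter regions, with a median of 1887 bp among 35 such members of replicate 1 and 4344 bp among the others.

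Median scores were higher in the heterochromatic part than on the euchromatic side, at 1.39 and 0.80 in replicate 1 and 1.23 and 0.75 in replicate 2. On the remainder of 2L they were 0.79 in replicate 1 and 0.73 in replicate 2. Length differed in the same direction. Among members of 2 to 5 kb the medians were 1.09 and 0.99 in replicate 1 (19 and 33 regions) and 1.04 and 0.87 in replicate 2 (52 and 48 regions). Among members of 5 to 10 kb they were 1.19 and 1.15 in replicate 1 (16 and 10 regions) and 1.651 and 1.655 in replicate 2 (24 and 6 regions). At matched length the medians of the heterochromatic part and the euchromatic side thus differed by far less than over all members, though the last value rests on 6 regions. On the remainder of 2L, regions of 2 to 5 kb had medians of 0.84 in replicate 1 and 0.87 in replicate 2 (354 and 637 regions). Those of 5 to 10 kb had 1.09 and 1.19 (61 and 131 regions). At either length the remainder was below the heterochromatic part in both replicates. The differences at matched length were not tested. Scores of the 110 members of replicate 1 met by replicate 2 had Pearson's r of 0.86 and Spearman's rho of 0.84 with the length-weighted mean score of the regions they met. This is a description across regions of the same libraries.

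The highest scores of long members lay at 22385963–22411118, a member of 25.2 kb with a score of 2.63 in replicate 1. Replicate 2 split the same place into regions at 22379555–22397309 (score 2.68) and 22401436–22411907 (3.09, its highest in the window), with a short one of 1662 bp and score 0.65 between them. The highest score of replicate 1, 4.08, belonged to a member of 1510 bp at 22796059–22797568, with a shared gap of more than 5 kb on either side. How many reads lie behind the score of so short a region is not known. Replicate 2 had a region of 1663 bp at the same place, 22796037–22797699, with a score of 2.75, the second highest of its members. The ends of this isolated region differed by 22 and 131 bp between the replicates.

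**Figure D4:**
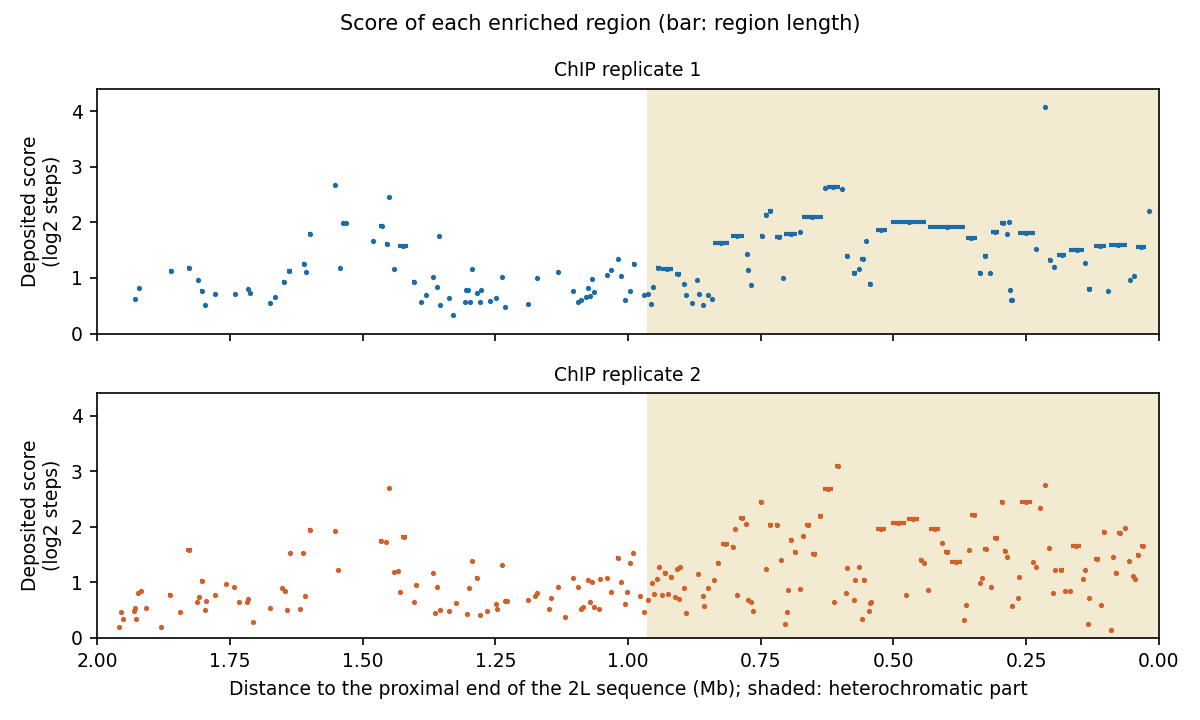
Deposited score (y axis, log2 steps with an unknown constant) of each member of replicate 1 (upper panel) and replicate 2 (lower panel) against the distance to the proximal end (x axis, Mb), each bar as long as its region. Most bars longer than 10 kb lie in the shaded heterochromatic part, and a single short region at 0.21 Mb has the highest score of replicate 1, 4.08.

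The euchromatic side had 1 cluster of long shared regions, described after its values were seen. Of its 6 longest shared regions, 5 lay within 199 kb, between 21397271 and 21596155, around a stretch that was sparsely covered in both replicates. The cluster's outer members were 21397271–21403758 (6.49 kb) and 21408387–21415486 (7.10 kb) towards the telomere. Towards the centromere they were 21543361–21550529 (7.17 kb), 21553845–21559786 (5.94 kb) and the 18.0-kb stretch named above. The lowest mean score of these 5 was 1.25 in replicate 1 and 1.15 in replicate 2, against medians of 0.80 and 0.75 over the members of the euchromatic side. Most of those members were shorter. Among the members of 5 to 10 kb on that side, some of them in the cluster, the medians were 1.15 in replicate 1 and 1.65 in replicate 2. The stretch between them, 21415487–21543360 (128 kb), was covered over 8.28% in replicate 1 by 5 regions and over 2.53% in replicate 2 by 2 regions. These regions were short, from 1360 to 2510 bp in replicate 1 and from 1365 to 1499 bp in replicate 2. Their scores ran from 1.18 to 2.67 in replicate 1 and from 1.22 to 1.92 in replicate 2. In replicate 1 the regions at 21473604–21476113 and 21478630–21480642 had the same score, 1.99, and scores that recurred belonged to shorter regions. The number of reads behind these scores is not known. The combined list covered 18.2% of the stretch with 10 regions, which scored from 0.96 to 3.79. Repeats and mappability were not examined for this stretch.

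The proximal window of 2L was less covered than the like windows of 3L and 2R and than scaffold 2LHet, which holds further heterochromatin of the same arm. It was 19.6 points below 3L in replicate 1 and 15.3 points in replicate 2, a mean difference of -17.5 ± 3.07 (SD, n = 2). The mean difference was -13.6 ± 1.88 from 2R and -9.10 ± 6.92 from 2LHet. These 3 differences each had p = 0.5 by the same exact permutation test, before and after Benjamini-Hochberg adjustment, again the smallest possible. The step lay nearer to the end of the sequence on 2L, at 965 kb ± 7.07, than on 3L, at 1545 kb ± 7.07, and on 2R, at 1535 kb ± 7.07. The replicates differed by 1 bin of 10 kb on each arm, so these SDs reflect the bin width and do not measure the uncertainty of a step. In the combined list the step lay at 1090 kb on 2L, 1550 kb on 3L and 1540 kb on 2R. The distances are counted from where each assembled sequence ends.

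On the proximal side of the step, the values of the 3 arms lay closer together. The share proximal to each list's own step was 77.3% on 2L, 85.3% on 3L and 79.5% on 2R in replicate 1, and 68.0%, 71.9% and 69.5% in replicate 2. Gaps of at least 5 kb there numbered 13.4 per Mb on 2L, 9.68 on 3L and 11.7 on 2R in replicate 1. In replicate 2 they numbered 19.8, 14.9 and 16.99, so 2L had the most of the 3 arms in both lists. Scaffold 2LHet had more than 2L, with 16.3 per Mb in replicate 1 and 29.8 in replicate 2, from 6 and 11 gaps. The fitted rise was wider on 2L than on 2R, at 363 and 385 kb against 74.2 and 76.3 kb. On 3L it came to 4.39 kb in replicate 1, the narrowest the fit allowed, and to 421 kb in replicate 2, and gave no stable width. The heterochromatic part of 2L was covered more than scaffold 2LHet, by 14.2 points in replicate 1 and 17.9 points in replicate 2 (mean 16.0 ± 2.60, exact sign-flip permutation test, p = 0.5). The longest gap on that scaffold measured 57.0 kb in replicate 1 and 57.5 kb in replicate 2.

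**Figure D5:**
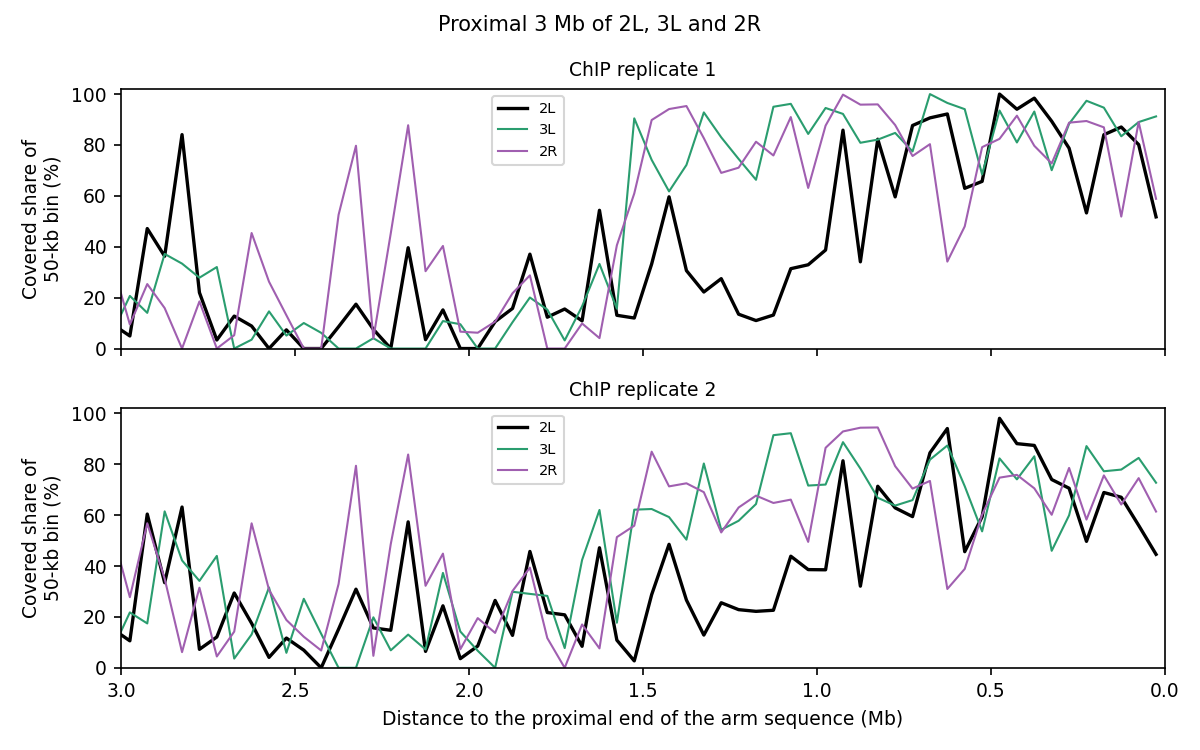
Covered share of 50-kb bins (y axis, %) against the distance to the proximal end of the arm sequence (x axis, Mb) for 2L (black), 3L (green) and 2R (purple), with replicate 1 above and replicate 2 below. The step on 2L, at 965 kb on average, lies nearer to the sequence's end than those on 3L and 2R, at 1545 and 1535 kb.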

How the data were processed

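The authors deposited 1 list of regions for each of 2 H3K9me2 ChIP libraries and a combined list of the replicate set. The submitters' processing notes name the aligner Bowtie 0.12.7, and coordinates are on FlyBase Release 5, per the file headers. How regions were called and thresholded, and how replicates were combined, is not given in the sources used here. The score of each region is the authors' deposited value with no stated unit. Scores served for ranking, filtering and description inside one list, and for the correlation of scores between the replicates, which an added constant leaves unchanged. Read-level values, the input libraries and a Release 5 genome or annotation were not used here, so repeats, mappability and genes were not examined.

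Covered shares, overlaps and gaps were computed in base pairs with Python 3.11.15, numpy 2.4.6, pandas 2.3.3 and scipy 1.17.1, and the interval arithmetic and the step fit were tested on simulated data. Regions named are the 10 longest shared stretches and the 10 longest shared gaps. Exceptions are a run of gaps, a cluster of the euchromatic side, single members with high scores and the comparison at matched length, all chosen after values were seen. Members and measures were chosen with earlier results of these data known. The replicates are 2 samples of 1 group, so p-values could not fall below 0.5. Alternatives were a stricter score, joining of gaps, other windows, bins, starts and gap lengths, the combined list and each replicate alone.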

Additional observations from a re-analysis of the deposited data

How the results depend on the processing

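The mean covered share of the window, 47.6%, was 38.7% with the better-scoring 50% of regions, 56.7% with gaps up to 5 kb joined, 55.1% in the combined list, 71.2% over the last 1 Mb and 37.9% over the last 3 Mb; the selection by score removes length and the joining adds it by construction. It ranged from 45.8% to 49.3% without either replicate. The excess over the remainder of the arm stayed above 0 under the 8 alternatives tried, from 23.2 to 56.0 points, and was 26.2 to 39.2 points without either replicate. The mean step, 22046545, moved to 22116545 with the better-scoring 50%, 21941545 with gaps up to 5 kb joined, 21921545 in the combined list, 22056545 and 22061545 with bins of 5 and 50 kb, and 22024448 as the midpoint of a logistic curve; leaving out a replicate gave 22041545 to 22051545. With the better-scoring 50% the replicates' steps stood farther apart, at 22061545 and 22171545. The cause of these shifts was not tested.

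The count of shared gaps of at least 5 kb, 13, became 41 at 1 kb and 3 at 10 kb, which follows from the limit, and ranged from 13 to 20 without either replicate (20 in replicate 2 alone); it was between 11 and 18 under the other alternatives. Shared gaps made up 19.8% of the heterochromatic part, 11.1% with gaps up to 5 kb joined, and 22.5% to 32.1% without either replicate. In the combined list the longest uncovered stretch of the gap at 22736912–22745998 was 4.69 kb. The other 9 of the 10 longest gaps kept an uncovered stretch of at least 5 kb there. Under the other alternatives 10 did, which was fixed in advance. A stricter score or leaving out a replicate can only lengthen a shared gap, and joining gaps up to 5 kb cannot close these longer ones. The Jaccard index of the window, 74.3%, was 69.7% with the better-scoring 50%, 75.3% and 81.7% with gaps up to 1 and 5 kb joined. In its place, 82.1% of the regions of replicate 1 were touched and 76.9% shared at least 50% of their length. No paired analysis was possible because the 2 ChIP libraries form a single group and the input libraries have no region list of their own here. Depth is unknown and limits what the absence of a region in a list can show.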
